A study of Homo sapiens with 20 samples.

Results

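The 42 genes described here are the transcription factor NRF2 (gene NFE2L2), its inhibitor KEAP1, and a list of NRF2 targets and redox enzymes, taken by gene symbol from a table of 27864 genes. All 42 were found in the table, and 41 had enough reads to be tested for differences. GPX3 did not. Messenger RNA was sequenced from SUM159PT, a human triple-negative breast cancer cell line, in 20 libraries of 7 groups. NNMT, which encodes nicotinamide N-methyltransferase, had been targeted in a pair of ways. The KOd cells received 2 guide RNAs that delete exon 1, and the KOs cells received 1 guide RNA at the transcription start site. For each strategy several clones were mixed into an oligoclonal pool, so each knockout is represented by 1 pool and not by separately tested clones. Parental cells are called wt.

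KOd, KOs and wt cells were each sequenced as secondary tumorspheres (3D) and as adherent cells (2D), with 3 libraries in every such group. Tumorspheres grew in ultra-low attachment plates over 2 passages of 6 days each, in serum-free DMEM/F12 with B27, 20 ng/mL EGF and 20 ng/mL basic FGF. Adherent cells were kept in Ham's F12 that held serum (5%), insulin at 5 μg/mL and hydrocortisone at 1 μg/mL. A seventh group of 2 libraries held adherent wt cells that were switched to tumorsphere medium before collection. The study's text gives different RNA extraction kits for tumorspheres and for adherent cells. Attachment, medium, time in culture and kit therefore cannot be told apart in the 3D against 2D comparisons, and the medium group separates the medium only in wt cells.

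NRF2 is a transcription factor that is made continuously and, in unstressed cells, marked for destruction by KEAP1, an adaptor of a CUL3 ubiquitin ligase. Oxidants and electrophiles modify cysteines of KEAP1, NRF2 then escapes degradation, enters the nucleus, pairs with small MAF proteins and binds antioxidant response elements. Its targets make and recycle glutathione and thioredoxin, supply NADPH, detoxify quinones, carbonyls and haem, store iron and export conjugates. Because NRF2 is controlled mainly through protein stability, the mRNA level of NFE2L2 itself need not follow the activity of the protein, which was not measured.

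The libraries held 26396964 to 43744817 counts. The libraries labelled KOs were deeper than the others (37316513 or more counts, against at most 32016875) and had less ribosomal RNA, at 0.696% to 2.38% of counts against 2.56% to 8.32%. The part of these differences in the results was not tested. NNMT, the targeted gene, was at 4.65, 5.18 and 5.64 CPM (counts scaled to library size with TMM factors) in KOd tumorspheres and at 85.1, 82.9 and 86.4 CPM in labelled KOs tumorspheres, against 85.7, 79.5 and 129.9 CPM in wt tumorspheres. In 2D, KOd cells had 4.39, 4.64 and 4.62 CPM and labelled KOs cells 130.1, 113 and 76.0 CPM, against 120.4, 128 and 102 CPM in wt cells. NNMT mRNA was thus low in KOd and within or near the wt range in the libraries labelled KOs. A small edit need not lower an mRNA, so its level does not check that label. The wt cells in tumorsphere medium had 226 and 247 CPM. Libraries A of labelled KOs 2D, C of wt 3D and C of KOd 3D stood apart from their groups, and counts that change by over 1.5 times without these 3 are given with and without them. Library C of labelled KOs 2D, not among these 3, also deviated from its group. Its root-mean-square deviation was 0.214, against 0.302 for A of labelled KOs 2D, 0.234 for C of wt 3D and 0.165 for C of KOd 3D. The 7 groups share 1 estimate of the spread, so SEs for labelled KOs 2D do not show how far its libraries scattered. The mesenchymal markers of this line were high (VIM 1922 and CD44 119 CPM per kilobase over all libraries), KRT18 was at 146 CPM per kilobase, and ESR1, PGR and EPCAM did not exceed 0.426 CPM in any library. Summed leukocyte markers (8 genes) were at 34.1 to 38.7, 189 to 201 and 18.2 to 21.4 CPM in KOd, labelled KOs and wt tumorspheres, at 98.2 to 110.5 CPM in the medium group, and at 42.1 to 50.3, 63.1 to 104.8 and 24.3 to 31.9 CPM in KOd, labelled KOs and wt 2D cells. CD68 made up most of these sums, and MS4A1 was at 0 in all libraries. Summed endothelial markers (5 genes) reached 90.2 to 97.4, 31.2 to 36.2 and 50.7 to 73.3 CPM in KOd, labelled KOs and wt tumorspheres, against 7.49 to 42.2 CPM over all adherent libraries, and these genes did not move alike. PECAM1 averaged 93.0, 33.4 and 59.4 CPM in KOd, labelled KOs and wt tumorspheres against 4.49, 6.83 and 2.66 CPM in their 2D cells, while KDR averaged 0.135, 0.171 and 0.022 CPM against 2.77, 12.5 and 5.81 CPM. The defining gene CDH5 was at no more than 0.105 CPM in any library. The part of these genes in the results was not tested, and in bulk RNA fewer cells of a type and less RNA per cell cannot be told apart.

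To show where NRF2 could bind, the core of the antioxidant response element, TGACNNNGC on either strand, was searched in RefSeq promoter windows (GRCh38.p14, 250 bases before to 50 after each start). It was present in 4687 of 35116 windows of all genes (13.3%) and in 8 of 45 windows of members (17.8%). Of the 32 members with a window, 7 held a match, and all their matches are printed, 5′ to 3′ on the strand of the gene, with the match in capitals. HMOX1, FTH1, PRDX1, PRDX6, SOD1, AKR1B10, ABCC1, ABCC3, GSR and CES1 had no window. Bases outside the windows were not searched, so a member without a printed match is not shown to lack one. A match is a run of letters and not a measured binding site.
GCLM, chr1:93909436-93909484, minus strand: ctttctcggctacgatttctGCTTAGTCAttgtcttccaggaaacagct
KEAP1, chr19:10502774-10502822, minus strand: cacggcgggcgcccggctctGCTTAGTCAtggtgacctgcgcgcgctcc
KEAP1, chr19:10502797-10502845, minus strand: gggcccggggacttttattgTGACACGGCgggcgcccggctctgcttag
GPX2, chr14:64942839-64942887, minus strand: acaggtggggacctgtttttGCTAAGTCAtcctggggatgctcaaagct
PGD, chr1:10398843-10398891, plus strand: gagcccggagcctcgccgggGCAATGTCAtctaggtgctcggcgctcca
TXNRD1, chr12:104215660-104215708, plus strand: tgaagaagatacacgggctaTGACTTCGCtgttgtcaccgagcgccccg
TXNRD1, chr12:104215761-104215789, plus strand: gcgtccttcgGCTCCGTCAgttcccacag
TXNRD1, chr12:104286910-104286958, plus strand: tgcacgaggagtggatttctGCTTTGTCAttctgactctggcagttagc
GSTP1, chr11:67583726-67583774, plus strand: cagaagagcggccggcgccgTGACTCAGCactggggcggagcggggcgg
MGST1, chr12:16347135-16347163, plus strand, 29 bases that lie after the start: ggggacatcgTGACAAAGCaaattgtctg
In GCLM, GPX2 and PGD the match reads in the reverse direction, in GSTP1 and MGST1 in the forward direction, and KEAP1 and TXNRD1 hold matches in both directions. The 7 members did not move alike. GCLM and PGD rose in tumorspheres of all 3 cell types, GSTP1 fell in all 3, and KEAP1, TXNRD1 and MGST1 differed between cell types, as given below. GPX2 was close to absent, and its higher counts in KOd and wt tumorspheres are given below as bounds.

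AKR1C1, AKR1C2 and AKR1C3 are neighbours on chromosome 10 and encode aldo-keto reductases that reduce steroids and reactive carbonyls. Their upstream sequences are shown as a description of how alike these genes are. They lie before the transcripts and do not bear on how reads were split. The 250 bases before AKR1C1 and AKR1C2 were 96.5% identical, and either shared 69.2% to 71.4% with the windows of AKR1C3. For AKR1C3 the window of a second start (chr10:5094264-5094413) is not printed. The 150 bases before 1 start of each gene, from RefSeq on GRCh38.p14 and on the strand of the gene, read as follows.
AKR1C1, chr10:4963265-4963414, plus strand: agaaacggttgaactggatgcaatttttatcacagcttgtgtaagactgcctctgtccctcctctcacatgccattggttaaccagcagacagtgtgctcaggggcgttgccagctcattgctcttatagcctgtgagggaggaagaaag
AKR1C2, chr10:5003858-5004007, minus strand: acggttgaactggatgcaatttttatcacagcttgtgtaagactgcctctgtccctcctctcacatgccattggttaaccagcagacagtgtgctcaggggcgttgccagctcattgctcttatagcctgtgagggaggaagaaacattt
AKR1C3, chr10:5048631-5048780, plus strand: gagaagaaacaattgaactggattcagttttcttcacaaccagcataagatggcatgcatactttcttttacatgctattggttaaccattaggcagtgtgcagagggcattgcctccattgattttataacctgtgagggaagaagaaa
The windows of these 3 genes held no TGACNNNGC. The transcripts are also alike: 28.3% of the 50-base words of the AKR1C1 transcript and 50.8% of those of AKR1C2 occur in the other. The counts of AKR1C1 and AKR1C2 could therefore be split between them in a way the table does not show, while AKR1C3 shared at most 9.61% of its words with either.

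Per kilobase of gene length, and averaged over all 20 libraries, the ferritin genes were the most abundant members, FTL at 3484 and FTH1 at 1861 CPM per kilobase. AKR1B1 (557), TKT (424), GSTP1 (407), HMOX1 (399.5), PRDX1 (387) and NQO1 (314 CPM per kilobase) followed. NFE2L2 was at 53.5 and KEAP1 at 31.8 CPM per kilobase. GSTM3 (0.109), GPX3 (0.0589) and GPX2 (0.0481 CPM per kilobase) were close to absent. The spread across groups differed widely between members: the highest group mean over the lowest was 769-fold for CES1, 172-fold for AKR1B10, 28.2-fold for AKR1C1 and 13.4-fold for SOD2, but 1.35-fold for TALDO1, 1.47-fold for PRDX3 and 1.49-fold for GPX1. KOd tumorspheres had the highest mean of all 7 groups for 11 members, labelled KOs tumorspheres for 10 and wt tumorspheres for 8, while KOd 2D cells had the lowest mean for 17 and wt 2D cells for 10. All levels below are TMM-scaled CPM and all changes are log2 fold changes ± SE of the edgeR quasi-likelihood model, with p-values adjusted over the 16323 genes tested; rose and fell are used for changes with an adjusted p under 0.05.

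**Figure D1:**
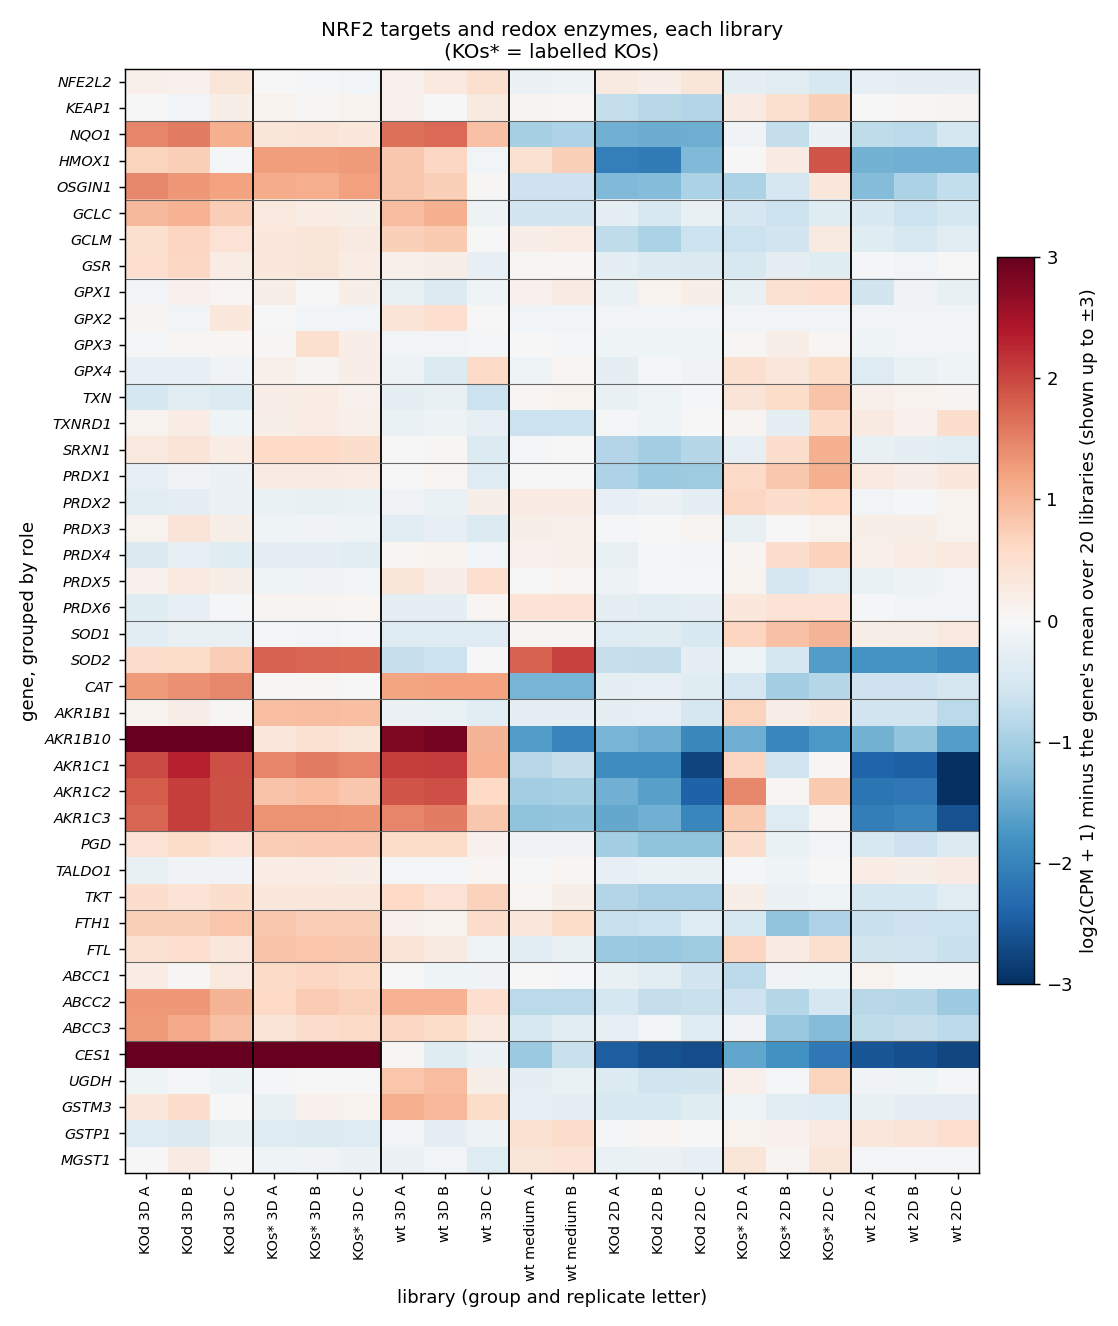
Levels of the 42 genes in each of the 20 libraries, as log2(CPM + 1) minus the mean of the gene over all libraries; rows are grouped by role, columns by group, and red is above and blue below the mean. The aldo-keto reductases, NQO1, OSGIN1 and CES1 are above their mean in most tumorsphere libraries, and library C of labelled KOs 2D stands out for HMOX1.

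In tumorspheres against adherent cells, many members were higher, among them SOD2, CES1, the ferritins and the glutathione-making ligase in all 3 cell types, while thioredoxin and GSTP1 were lower. In KOd 30 of the 41 tested members rose and 2 fell, where 35.2% of all genes tested rose and 31.2% fell (66.4% passed, and 74.4% had groups that did not overlap). In labelled KOs 22 rose and 9 fell (background 32.9% and 32.1%, 65.0% in all, 66.0% without overlap), against 23 and 5 under library-total scaling, which moved the median of all genes by 0.22. In wt 24 rose and 7 fell (background 33.3% and 30.4%, 63.7% in all, 68.2% without overlap). The share that rose was thus above the background in each cell type, for members that were chosen with earlier results of these data known. The median log2 fold change over members was 1.16 in KOd (0.87 with GPX2 at the bound that its counts allow), 0.37 in labelled KOs (0.32 with GPX2 at its bound) and 0.79 in wt, against 0.07, 0.02 and 0.04 over all genes. Of the members, 18 rose in all 3 cell types, as did 16.2% of all genes. TXN and GSTP1 fell in all 3 (15.9% of all genes), PRDX1 passed in all 3 with differing direction (3.98%), and GPX1 and GPX4 passed in none (9.15%).

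The regulators did not change alike in the 3 cell types. NFE2L2 was at 209.9, 206 and 242 CPM in KOd tumorspheres against 229, 218 and 241 in KOd 2D cells, and the groups overlapped (-0.06 ± 0.09, adjusted p = 0.532). It was at 187, 183 and 178 CPM in labelled KOs tumorspheres against 155, 149.8 and 134 in labelled KOs 2D cells, without overlap (0.32 ± 0.09, adjusted p = 0.00397). In wt it was at 207, 229 and 262 CPM in tumorspheres against 157, 153 and 154 in 2D cells, again without overlap (0.59 ± 0.09, adjusted p = 1.67e-05). NFE2L2 mRNA thus rose in labelled KOs and wt and did not pass in KOd. KEAP1 was at 83.4, 78.8 and 93.7 CPM in KOd tumorspheres against 50.3, 46.5 and 44.7 in KOd 2D cells and rose (0.85 ± 0.11, adjusted p = 1.44e-06). In labelled KOs it was at 89.4, 85.1 and 89.7 CPM in tumorspheres against 98.4, 115 and 137 in 2D cells and fell (-0.41 ± 0.10, adjusted p = 0.00218), a call that was lost under library-total scaling (adjusted p = 0.0601). In wt it was at 90.8, 82.0 and 101 CPM in tumorspheres against 82.1, 85.2 and 88.2 in 2D cells (0.10 ± 0.10, adjusted p = 0.415), and the groups overlapped.

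NQO1, which reduces quinones by 2 electrons and is the classic NRF2 target, was higher in tumorspheres of every cell type. It was at 1729, 1828 and 1321 CPM in KOd tumorspheres against 232, 224 and 228 in KOd 2D cells (2.83 ± 0.19, adjusted p = 1.1e-09), and at 1984, 2051 and 1156 CPM in wt tumorspheres against 368, 364 and 438 in wt 2D cells (2.15 ± 0.19, adjusted p = 3.07e-08). Labelled KOs had 814, 828 and 783 CPM in tumorspheres against 581, 384 and 558 in 2D cells, a smaller rise (0.67 ± 0.18, adjusted p = 0.00366). No tumorsphere library was within the range of its own 2D group. HMOX1, the inducible enzyme that breaks down haem, was at 763, 793 and 460.1 CPM in KOd tumorspheres against 115, 112 and 189 in KOd 2D cells (2.28 ± 0.38, adjusted p = 5.04e-05). In wt it was at 834, 741 and 451 CPM in tumorspheres against 179, 175 and 177 in 2D cells (1.93 ± 0.38, adjusted p = 0.000249). In labelled KOs it was at 1143, 1144 and 1157 CPM in tumorspheres against 477, 569 and 1771 in 2D cells, where library C alone exceeded the tumorspheres and the groups overlapped (0.29 ± 0.37, adjusted p = 0.501). OSGIN1, named for its induction by oxidative stress and its inhibition of growth, rose in all 3 cell types, with 43.4, 39.7 and 36.8 CPM in KOd tumorspheres against 5.56, 5.72 and 7.59 in KOd 2D cells (2.67 ± 0.28, adjusted p = 2.1e-07), 1.49 ± 0.26 in labelled KOs and 1.66 ± 0.27 in wt.

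Both subunits of the enzyme that starts glutathione synthesis rose in tumorspheres. GCLC, the catalytic subunit of glutamate-cysteine ligase, was at 92.5, 98.2 and 78.5 CPM in KOd tumorspheres against 38.3, 33.4 and 40.3 in KOd 2D cells (1.27 ± 0.20, adjusted p = 3.07e-05). It was at 89.8, 99.2 and 42.0 CPM in wt tumorspheres against 34.1, 29.8 and 32.4 in wt 2D cells (1.26 ± 0.20, adjusted p = 3.81e-05), where library C was the lowest of the tumorspheres but still above the 2D cells. In labelled KOs it rose by 0.76 ± 0.20. GCLM, the modifier subunit, rose by 1.32 ± 0.20 in KOd, 0.58 ± 0.20 in labelled KOs and 0.94 ± 0.20 in wt, and its groups overlapped in labelled KOs only. GSR, which reduces oxidised glutathione, rose in KOd (0.84 ± 0.11) and labelled KOs (0.68 ± 0.11), while in wt it was 0.09 ± 0.11 (adjusted p = 0.463). Among the glutathione peroxidases, GPX1 and the lipid hydroperoxidase GPX4 lay between -0.32 and 0.29 in the 3 cell types and passed in none. GPX2, the gastrointestinal peroxidase, had raw counts of 4, 0 and 9 in KOd tumorspheres, 2, 0 and 0 in labelled KOs tumorspheres and 12, 15 and 2 in wt tumorspheres, and 0 in all adherent libraries. Against a floor of 3 counts per library this puts KOd tumorspheres at least 1.41-fold above KOd 2D cells and wt tumorspheres at least 2.83-fold above wt 2D cells. The wt call was lost with DESeq2 (adjusted p = 0.051), and the KOd call (0.0497 by edgeR) was lost with DESeq2 (0.115) and limma-voom (0.0579). GPX3, the secreted peroxidase, was at most 0.526 CPM in any library.

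Thioredoxin did not follow the glutathione ligase, and the peroxiredoxins differed between genes and cell types. TXN, the small protein that reduces peroxiredoxins, was at 158, 179.7 and 169.7 CPM in KOd tumorspheres against 194, 208 and 216 in KOd 2D cells (-0.29 ± 0.11, adjusted p = 0.0315), and it fell in labelled KOs (-0.42 ± 0.11) and wt (-0.49 ± 0.11). TXNRD1, the cytosolic thioredoxin reductase, fell in wt (-0.52 ± 0.15, adjusted p = 0.00607) and was at 0.14 in KOd and 0.03 in labelled KOs, with overlapping groups. SRXN1, which repairs over-oxidised peroxiredoxins, rose in KOd, with 159, 171 and 154 CPM in tumorspheres against 71.2, 63.7 and 72.2 in 2D cells (1.22 ± 0.20, adjusted p = 4.56e-05). Its groups overlapped in labelled KOs (0.03) and in wt (0.16). PRDX1, an abundant cytosolic peroxiredoxin, was at 414, 455 and 432 CPM in KOd tumorspheres against 255, 224 and 231 in KOd 2D cells and rose (0.87 ± 0.12, adjusted p = 4.46e-06). In labelled KOs it was at 575, 578 and 567 CPM in tumorspheres against 722, 853 and 1013 in 2D cells and fell (-0.59 ± 0.12, adjusted p = 0.000283), as it did in wt (-0.36 ± 0.12). Of the other 5 peroxiredoxins, PRDX2, PRDX4 (of the endoplasmic reticulum) and PRDX6 fell in labelled KOs (-0.79, -0.78 and -0.31), the mitochondrial PRDX3 rose in KOd (0.22) and fell in wt (-0.47), and PRDX5 rose in KOd (0.28) and wt (0.51).

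Of the superoxide dismutases, SOD2 rose in tumorspheres of all 3 cell types and SOD1 in none. SOD2, the mitochondrial manganese enzyme, which is induced by NF-kB as well, was at 1366, 1396 and 1593 CPM in KOd tumorspheres against 588, 579 and 778 in KOd 2D cells (1.16 ± 0.26, adjusted p = 0.000869), and at 3269, 3184 and 3138 CPM in labelled KOs tumorspheres against 874, 661 and 298 in labelled KOs 2D cells (2.39 ± 0.27, adjusted p = 8.89e-07). In wt it was at 586, 613 and 965 CPM in tumorspheres against 276, 278 and 251 in 2D cells (1.43 ± 0.27, adjusted p = 0.000156). Each tumorsphere group lay above its 2D group. SOD1, the cytosolic copper and zinc enzyme, fell in labelled KOs (-0.92 ± 0.08) and wt (-0.61 ± 0.08) and was 0.16 ± 0.08 in KOd (adjusted p = 0.0809). CAT, the peroxisomal catalase, was at 249, 265 and 278 CPM in KOd tumorspheres against 84.6, 85.3 and 78.5 in KOd 2D cells (1.67 ± 0.10, adjusted p = 1.72e-10) and at 231, 236 and 237 CPM in wt tumorspheres against 65.8, 65.1 and 70.7 in wt 2D cells (1.80 ± 0.10, adjusted p = 9.54e-11). In labelled KOs the rise was smaller, with 103, 105 and 101 CPM in tumorspheres against 71.8, 49.9 and 56.0 in 2D cells (0.80 ± 0.10, adjusted p = 1.74e-06).

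The aldo-keto reductases showed some of the largest changes. AKR1B10, which reduces retinal and other aldehydes, was at 47.1, 45 and 42.3 CPM in KOd tumorspheres against 0.721, 0.628 and 0.173 in KOd 2D cells (6.45 ± 0.52, adjusted p = 8.4e-09). In labelled KOs it was at 4.7, 5.18 and 4.79 CPM in tumorspheres against 0.645, 0.161 and 0.369 in 2D cells (3.60 ± 0.52, adjusted p = 9.99e-06, and 4.20 without library A of labelled KOs 2D), and in wt at 30.5, 32.1 and 8.12 CPM in tumorspheres against 0.695, 0.969 and 0.432 in 2D cells (5.06 ± 0.50, adjusted p = 1.21e-07). It was at most 0.969 CPM in every 2D library and at least 4.7 CPM in every tumorsphere library. AKR1C1 was at 292, 369.9 and 283 CPM in KOd tumorspheres against 19.2, 18.9 and 9.97 in KOd 2D cells (4.29 ± 0.34, adjusted p = 6.74e-09), and at 309.9, 316 and 153 CPM in wt tumorspheres against 13.0, 12.6 and 7.89 in wt 2D cells (4.54 ± 0.35, adjusted p = 5.54e-09). Labelled KOs had 204, 213 and 203 CPM in tumorspheres against 114, 47.6 and 75.2 in 2D cells, a smaller rise from a higher 2D level (1.39 ± 0.30, adjusted p = 0.000619). AKR1C3, which shares few long stretches with the other 2 transcripts, gave 3.56 ± 0.27 in KOd, 1.11 ± 0.24 in labelled KOs and 3.53 ± 0.27 in wt. AKR1C2 gave 3.73 ± 0.39 in KOd and 4.06 ± 0.40 in wt, but in labelled KOs it was at 393, 411 and 384 CPM in tumorspheres against 595, 229 and 380.0 in 2D cells, with overlap (-0.02 ± 0.35, adjusted p = 0.968). AKR1B1, the aldose reductase, rose by 0.45, 0.51 and 0.43 in KOd, labelled KOs and wt.

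**Figure D2:**
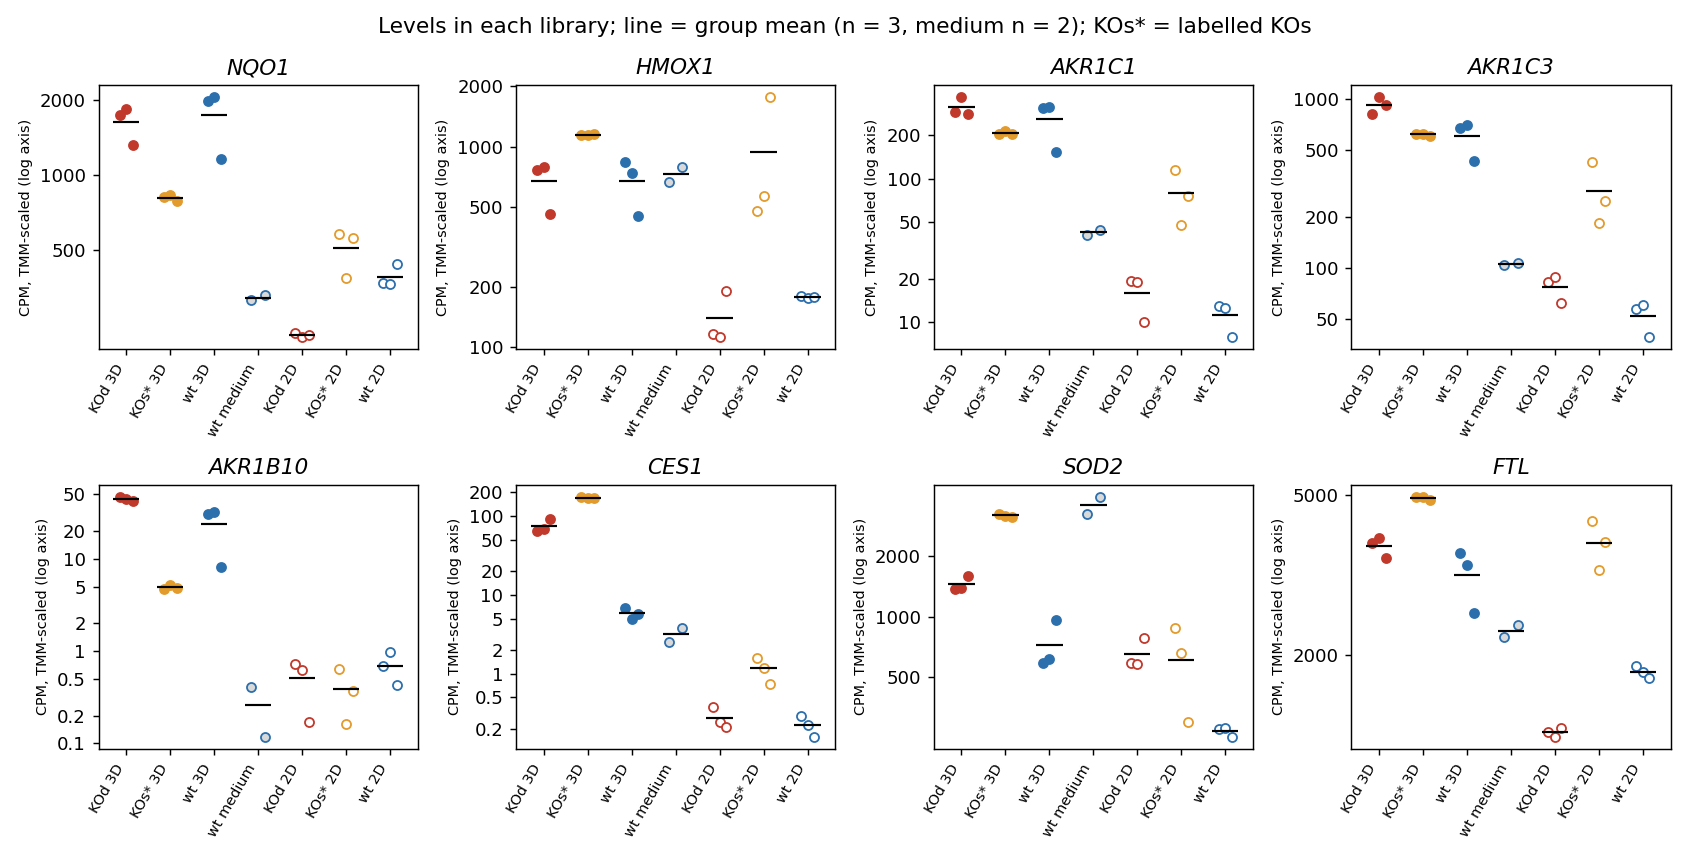
TMM-scaled CPM on a log axis of 8 members in each library, by group, with the group mean as a line; filled points are tumorspheres, open points adherent cells and grey-filled points wt cells in tumorsphere medium. AKR1B10 is at most 0.969 CPM in all 2D libraries, CES1 is highest in labelled KOs tumorspheres, and SOD2 in the medium group reaches 3965 CPM.

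PGD, TKT and both ferritin genes rose in tumorspheres of all 3 cell types. PGD, the second NADPH-producing enzyme of the pentose phosphate pathway, was at 438, 473 and 426 CPM in KOd tumorspheres against 159, 139.6 and 139 in KOd 2D cells (1.61 ± 0.15, adjusted p = 4.68e-08), and it rose by 0.64 ± 0.15 in labelled KOs and 0.92 ± 0.15 in wt. TKT, the transketolase of the same pathway, rose by 1.43 ± 0.10 in KOd, 0.37 ± 0.10 in labelled KOs and 1.04 ± 0.10 in wt. TALDO1, the transaldolase, rose in labelled KOs (0.27), fell in wt (-0.21) and was 0.08 in KOd with overlap. FTL, the ferritin light chain, was at 3803, 3903 and 3479 CPM in KOd tumorspheres against 1281, 1248 and 1312 in KOd 2D cells (1.54 ± 0.12, adjusted p = 4.51e-09), and it rose by 0.38 ± 0.12 in labelled KOs and 0.80 ± 0.12 in wt. FTH1, the heavy chain that oxidises iron, was at 3634, 3467 and 3470.3 CPM in labelled KOs tumorspheres against 1502, 912 and 1080.1 in labelled KOs 2D cells (1.60 ± 0.15, adjusted p = 1.05e-07). It rose by 1.32 ± 0.15 in KOd and 0.92 ± 0.15 in wt. The row of its pseudogene FTH1P3 held 17.9% as many counts as FTH1, so the split of reads between them is uncertain.

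Exporters and conjugating enzymes differed among themselves. ABCC2, an exporter of glutathione and glucuronide conjugates, rose by 1.85 ± 0.13 in KOd, 1.35 ± 0.13 in labelled KOs and 1.81 ± 0.13 in wt, and its relative ABCC3 by 1.35 ± 0.22, 1.25 ± 0.22 and 1.27 ± 0.22 in the same order. ABCC1 rose in KOd (0.56 ± 0.14) and labelled KOs (0.91 ± 0.14) and was -0.11 ± 0.14 in wt, with overlap. CES1, a carboxylesterase that hydrolyses esters of drugs and lipids, had the largest change of any member in KOd, with 65.6, 69.1 and 92.8 CPM in tumorspheres against 0.377, 0.244 and 0.207 in 2D cells (8.08 ± 0.27, adjusted p = 2.52e-13). In labelled KOs it was at 177, 169.6 and 171 CPM in tumorspheres against 1.58, 1.18 and 0.738 in 2D cells (7.19 ± 0.23, adjusted p = 1.44e-13), and in wt at 6.78, 4.97 and 5.72 CPM in tumorspheres against 0.293, 0.224 and 0.157 in 2D cells (4.67 ± 0.31, adjusted p = 1.02e-09). The pseudogene row CES1P2 held more counts than CES1 in 2D, and how reads were split between these rows was not tested. Summed over the libraries of a group, CES1P2 held 1906 counts in KOd tumorspheres against 466 in 2D cells and 6102 against 3490 in labelled KOs, so it was higher with CES1 in both pools. In wt it held 250 counts in tumorspheres against 842 in 2D cells, while CES1 held 522 against 18, so these rows differed in direction there. In tumorspheres CES1 exceeded CES1P2, with 2146 to 2650 against 566 to 758 counts in KOd, 6773 to 7391 against 1923 to 2114 in labelled KOs, and 148 to 210 against 74 to 97 in wt.

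UGDH, which makes the UDP-glucuronate used in glucuronidation, rose in KOd (0.40 ± 0.16) and wt (0.79 ± 0.16) and was -0.32 ± 0.16 in labelled KOs (adjusted p = 0.0908). GSTP1, the abundant cytosolic glutathione transferase of this line, was at 290.3, 282 and 327 CPM in KOd tumorspheres against 365, 393 and 375 in KOd 2D cells, and fell in KOd (-0.33 ± 0.08), labelled KOs (-0.57 ± 0.08) and wt (-0.59 ± 0.08). MGST1, the microsomal transferase, rose in KOd (0.29), fell in labelled KOs (-0.41) and was -0.18 in wt (adjusted p = 0.104). GSTM3 passed in all 3 but at no more than 1.91 CPM in any library, and in labelled KOs the call was lost without any of 4 single libraries (B or C of the 2D group, B or C of the tumorspheres) and with the compared groups alone.

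**Figure D3:**
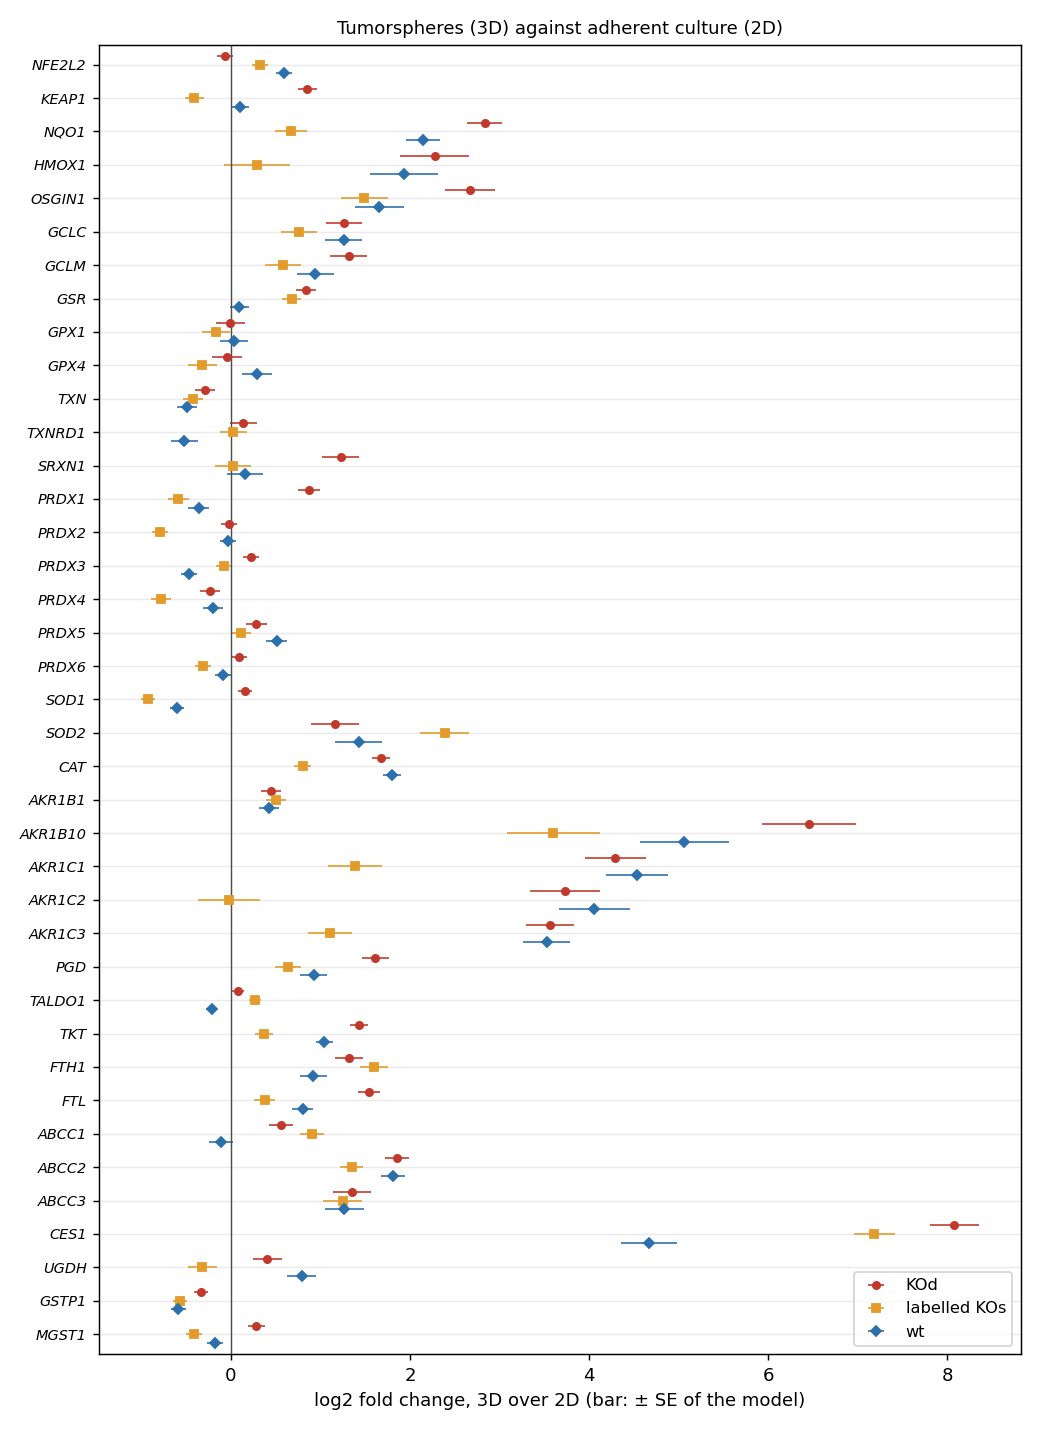
Log2 fold change of tumorspheres over adherent cells for 39 members in KOd, labelled KOs and wt, with bars for ± SE of the model; GPX2 and GSTM3 are left out for their low counts. KOd and wt lie near each other for AKR1C1, AKR1C2 and AKR1C3 (3.53 to 4.54), while labelled KOs lies between -0.02 and 1.39.

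The change with culture was itself compared between each pool and wt by an interaction contrast. For KOd, 14 members had a more positive change than wt and 1 a more negative one, where 14.4% of all genes were more positive and 14.7% more negative (29.1% passed). The 3 members past 1 on the log2 scale (11.0% of all genes) were CES1 (3.41 ± 0.62, adjusted p = 0.000487), PRDX1 (1.23 ± 0.17, adjusted p = 3.37e-05) and SRXN1 (1.06 ± 0.29, adjusted p = 0.00946). SOD1 (0.77 ± 0.11), KEAP1 (0.76 ± 0.15), GSR (0.75 ± 0.15), FTL (0.74 ± 0.16), PGD, PRDX3, ABCC1, TXNRD1, MGST1, TKT and TALDO1 (0.29 to 0.69) were more positive too, and NFE2L2 was the one more negative (-0.65 ± 0.13, adjusted p = 0.00078). NQO1 (0.68 ± 0.26, adjusted p = 0.054) and HMOX1 (0.34 ± 0.52, adjusted p = 0.665) did not pass.

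For labelled KOs, 7 members had a more positive change than wt and 14 a more negative one (background 17.9% and 19.0%, 36.8% in all), and 8 and 9 under library-total scaling. Of the members 9 were past 1 in size (16.6% of all genes). The most negative were AKR1C2 (-4.07 ± 0.51, adjusted p = 1.48e-05), AKR1C1 (-3.15 ± 0.44, adjusted p = 3.77e-05), AKR1C3 (-2.42 ± 0.35, adjusted p = 5.03e-05), HMOX1 (-1.64 ± 0.52, adjusted p = 0.0197), NQO1 (-1.48 ± 0.26, adjusted p = 0.000294), UGDH (-1.11 ± 0.23, adjusted p = 0.00109) and CAT (-1.0 ± 0.14, adjusted p = 3.57e-05). The difference for HMOX1 rested on library C of labelled KOs 2D: without it the value was -0.80 with an adjusted p of 0.0726, and with the compared groups alone the adjusted p was 0.0508. KEAP1 was also more negative (-0.51 ± 0.15, adjusted p = 0.0116), a call lost under library-total scaling (0.0685) and with the compared groups alone (0.0521). More positive were CES1 (2.52 ± 0.55, adjusted p = 0.00169, with fewer CES1P2 counts in tumorspheres than in 2D in wt), ABCC1 (1.02 ± 0.19, adjusted p = 0.000566), SOD2 (0.96 ± 0.37, adjusted p = 0.0499), FTH1 (0.68 ± 0.21, adjusted p = 0.0176), GSR, TALDO1 and PRDX3 (0.39 to 0.59). PRDX2, TKT, GPX4, PRDX4, FTL and SOD1 were more negative as well (-0.32 to -0.76). NFE2L2 did not pass (-0.27 ± 0.12, adjusted p = 0.103).

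In adherent culture the pools stood on opposite sides of wt for many members. In KOd 4 members rose and 17 fell against wt, where 22.1% of all genes rose and 22.5% fell (44.6% passed, 62.7% without overlap). In labelled KOs 22 rose and 4 fell (background 27.7% and 25.5%, 53.2% in all, 51.5% without overlap). The medians over members were -0.24 in KOd and 0.40 in labelled KOs, against 0.01 and 0.06 over all genes. In KOd the split was 8 and 10 under library-total scaling, which moved the median of all genes by 0.11, and 11 rose and 21 fell both without the 3 libraries that stood apart and with the replicate letter as a block in these groups alone. SOD2 and AKR1B1 rose in both pools and GSR, TALDO1, ABCC1 and GSTP1 fell in both. KEAP1, SRXN1, PRDX1, PRDX2, PRDX6, SOD1, PGD, TKT, FTL and UGDH fell in KOd and rose in labelled KOs. Both comparisons share the wt libraries.

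Among the regulators in 2D, NFE2L2 was at 229, 218 and 241 CPM in KOd cells against 157, 153 and 154 in wt cells (0.57 ± 0.09, adjusted p = 5.12e-05), and at 155, 149.8 and 134 CPM in labelled KOs cells, overlapping wt (-0.08 ± 0.09, adjusted p = 0.453). KEAP1 was at 50.3, 46.5 and 44.7 CPM in KOd cells against 82.1, 85.2 and 88.2 in wt cells (-0.85 ± 0.11, adjusted p = 4.19e-06), and at 98.4, 115 and 137 CPM in labelled KOs cells (0.46 ± 0.10, adjusted p = 0.00128). KOd 2D cells thus had more NFE2L2 and less KEAP1 mRNA than wt. NQO1 was lower in KOd cells, at 232, 224 and 228 CPM against 368, 364 and 438 in wt cells (-0.77 ± 0.18, adjusted p = 0.00214), and in labelled KOs cells it was at 581, 384 and 558 CPM with overlap (0.38 ± 0.18, adjusted p = 0.0871). HMOX1 was at 115, 112 and 189 CPM in KOd cells against 179, 175 and 177 in wt cells, with overlap (-0.35 ± 0.37, adjusted p = 0.47), and at 477, 569 and 1771 CPM in labelled KOs cells (2.41 ± 0.39, adjusted p = 5.12e-05, and 1.56 without library C). Library C of labelled KOs was the highest of all 2D libraries for HMOX1.

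Of the peroxide and superoxide enzymes, PRDX1 and SOD1 fell in KOd 2D cells and SOD2 rose. PRDX1 was at 255, 224 and 231 CPM in KOd cells against 602, 558 and 602 in wt cells (-1.31 ± 0.12, adjusted p = 1.34e-07), the largest fall that passed there, and at 722, 853 and 1013 CPM in labelled KOs cells (0.56 ± 0.12, adjusted p = 0.000703). SOD1 was at 138, 139.9 and 132 CPM in KOd cells and 284, 332 and 366 in labelled KOs cells, against 206, 205 and 223 in wt cells (-0.63 ± 0.08 in KOd and 0.63 ± 0.08 in labelled KOs), so the 3 groups did not overlap. SRXN1 gave -0.65 ± 0.20 in KOd and 0.82 ± 0.20 in labelled KOs, and TXN -0.26 ± 0.11 (adjusted p = 0.0691) and 0.49 ± 0.11. TXNRD1 fell in KOd (-0.38 ± 0.15) and was -0.16 in labelled KOs with overlap. GPX4 (0.69 ± 0.17) and GPX1 (0.57 ± 0.16) rose in labelled KOs, and were 0.08 and 0.32 in KOd. PRDX4 fell in KOd (-0.34) and MGST1 rose in labelled KOs (0.31). SOD2 was at 588, 579 and 778 CPM in KOd cells and 874, 661 and 298 in labelled KOs cells, against 276, 278 and 251 in wt cells, and rose in KOd (1.27 ± 0.27, adjusted p = 0.000766) and labelled KOs (1.19 ± 0.26, adjusted p = 0.0011).

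The aldo-keto reductases separated labelled KOs from wt in 2D. AKR1C1 was at 114, 47.6 and 75.2 CPM in labelled KOs cells against 13.0, 12.6 and 7.89 in wt cells (2.82 ± 0.33, adjusted p = 1.58e-06), AKR1C2 at 595, 229 and 380.0 against 47.0, 48.8 and 22.7 CPM (3.34 ± 0.38, adjusted p = 1.41e-06) and AKR1C3 at 423, 186 and 249.9 against 57.2, 60.7 and 39.3 CPM (2.45 ± 0.25, adjusted p = 4.58e-07). For all 3 genes each labelled KOs library was above each wt library. KOd cells had 19.2, 18.9 and 9.97 CPM of AKR1C1, and none of the 3 passed there (0.52, 0.68 and 0.57). AKR1B1 was at 911, 924 and 768 CPM in KOd cells and 1750.5, 1259 and 1359 in labelled KOs cells, against 741, 731 and 622 in wt cells (0.31 ± 0.11 in KOd and 1.06 ± 0.11 in labelled KOs). FTL was at 1281, 1248 and 1312 CPM in KOd cells and 4319.8, 3249.7 and 3826 in labelled KOs cells, against 1878, 1812 and 1748 in wt cells (-0.50 ± 0.12 in KOd and 1.07 ± 0.12 in labelled KOs). PGD gave -0.64 ± 0.15 in KOd and 0.62 ± 0.15 in labelled KOs, and TKT -0.47 ± 0.10 and 0.42 ± 0.10. CES1 was at 1.58, 1.18 and 0.738 CPM in labelled KOs cells against 0.293, 0.224 and 0.157 in wt cells (2.36 ± 0.38, adjusted p = 5.46e-05); its pseudogene row CES1P2 held 816 to 1444 counts in labelled KOs and 253 to 314 in wt, and how reads were split between them was not tested. OSGIN1 rose in labelled KOs with overlap (0.78 ± 0.27, adjusted p = 0.0233). CAT rose in KOd (0.30). PRDX2 (-0.24 and 0.58), PRDX6 (-0.23 and 0.46) and UGDH (-0.42 and 0.40) fell in KOd and rose in labelled KOs, while GSR (-0.33 and -0.33), TALDO1 (-0.43 and -0.26), ABCC1 (-0.40 and -0.35) and GSTP1 (-0.43 and -0.24) fell in both. ABCC3 was 0.02 in labelled KOs but -0.46, and past the threshold, without library A of that group.

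In tumorspheres fewer members separated KOd from wt. In KOd 9 rose and 2 fell (background 16.5% and 17.5%, 34.0% in all, 45.6% without overlap). In labelled KOs 14 rose and 11 fell (background 27.8% and 28.5%, 56.3% in all, 68.7% without overlap). The medians over members were 0.17 in KOd and 0.08 in labelled KOs, against 0.00 and 0.02 over all genes. These counts are near the background for labelled KOs, and in KOd they depended on the setting: 19 rose and 1 fell under library-total scaling, which moved the median of all genes by 0.16, 14 rose and 6 fell without the 3 libraries that stood apart, 15 rose and 3 fell with the replicate letter as a block in these groups alone, and 6 rose and 1 fell without library A of KOd. In labelled KOs library totals gave 19 and 7. GSR, SOD2, AKR1B1, FTH1 and CES1 rose in both pools, and PRDX4 and UGDH fell in both. The pools were compared with the same wt libraries.

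CES1 was the member with the largest difference from wt in tumorspheres, at 65.6, 69.1 and 92.8 CPM in KOd (3.70 ± 0.19, adjusted p = 1.53e-10) and 177, 169.6 and 171 CPM in labelled KOs (4.89 ± 0.20, adjusted p = 2.85e-12), against 6.78, 4.97 and 5.72 CPM in wt. Each pool library was above each wt library. SOD2 was at 1366, 1396 and 1593 CPM in KOd (1.01 ± 0.26, adjusted p = 0.00621) and 3269, 3184 and 3138 CPM in labelled KOs (2.15 ± 0.27, adjusted p = 2.95e-06), against 586, 613 and 965 CPM in wt. AKR1B1 was at 1182, 1263 and 1116 CPM in KOd and 2068, 2094 and 2052 CPM in labelled KOs, against 969, 959 and 886 CPM in wt (0.34 ± 0.11 in KOd and 1.14 ± 0.11 in labelled KOs). FTH1 (0.49 and 0.50) and GSR (0.41 and 0.26) rose too. UGDH was at 68.4, 71.9 and 67.9 CPM in KOd and 72.4, 75.6 and 74.6 CPM in labelled KOs, against 136, 143 and 85.6 CPM in wt (-0.81 ± 0.16 in KOd and -0.71 ± 0.16 in labelled KOs), and PRDX4 gave -0.37 and -0.34. Library C of wt was the lowest of its group for UGDH and the highest for SOD2, which places it nearer the pools for both genes.

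The other members differed in 1 pool or in none. NFE2L2 was at 209.9, 206 and 242 CPM in KOd with overlap (-0.09 ± 0.09, adjusted p = 0.481) and at 187, 183 and 178 CPM in labelled KOs (-0.35 ± 0.09, adjusted p = 0.0026, lost under library-total scaling at 0.0669), against 207, 229 and 262 CPM in wt. KEAP1 did not pass in either pool (-0.10 ± 0.10, adjusted p = 0.504 in KOd, -0.05 ± 0.10, adjusted p = 0.694 in labelled KOs). NQO1 was at 814, 828 and 783 CPM in labelled KOs, below each wt library, and fell (-1.10 ± 0.18, adjusted p = 6.35e-05), while in KOd it overlapped wt (-0.09 ± 0.18, adjusted p = 0.745). HMOX1 gave -0.01 ± 0.37, adjusted p = 0.992 in KOd and 0.77 ± 0.37, adjusted p = 0.0846 in labelled KOs. AKR1B10 was at 4.7, 5.18 and 4.79 CPM in labelled KOs against 30.5, 32.1 and 8.12 CPM in wt and fell (-2.27 ± 0.39, adjusted p = 9.46e-05), and in KOd it was at 47.1, 45 and 42.3 CPM (0.92 ± 0.37, adjusted p = 0.0623). CAT was at 103, 105 and 101 CPM in labelled KOs against 231, 236 and 237 CPM in wt and fell (-1.18 ± 0.10, adjusted p = 1.62e-08). AKR1C1, AKR1C2 and AKR1C3 passed in neither pool, between -0.73 and 0.61. GSTM3 (-1.99) and GPX2 fell in labelled KOs from counts near 0, and the GPX2 call was lost with DESeq2 (0.135).

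In labelled KOs tumorspheres against wt, TXN (0.56 ± 0.11), SRXN1 (0.68 ± 0.20) and TXNRD1 (0.39 ± 0.15) rose, and in KOd they were -0.05, 0.41 and 0.28 with none passed. FTL (0.64), ABCC1 (0.67), PRDX1 (0.32), SOD1 (0.31), PRDX6 (0.23) and TALDO1 (0.22) rose too, and PRDX5 (-0.47), TKT (-0.25) and GSTP1 (-0.22) fell. In KOd OSGIN1 (0.78), ABCC3 (0.61), PRDX3 (0.55) and MGST1 (0.29) rose.

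**Figure D4:**
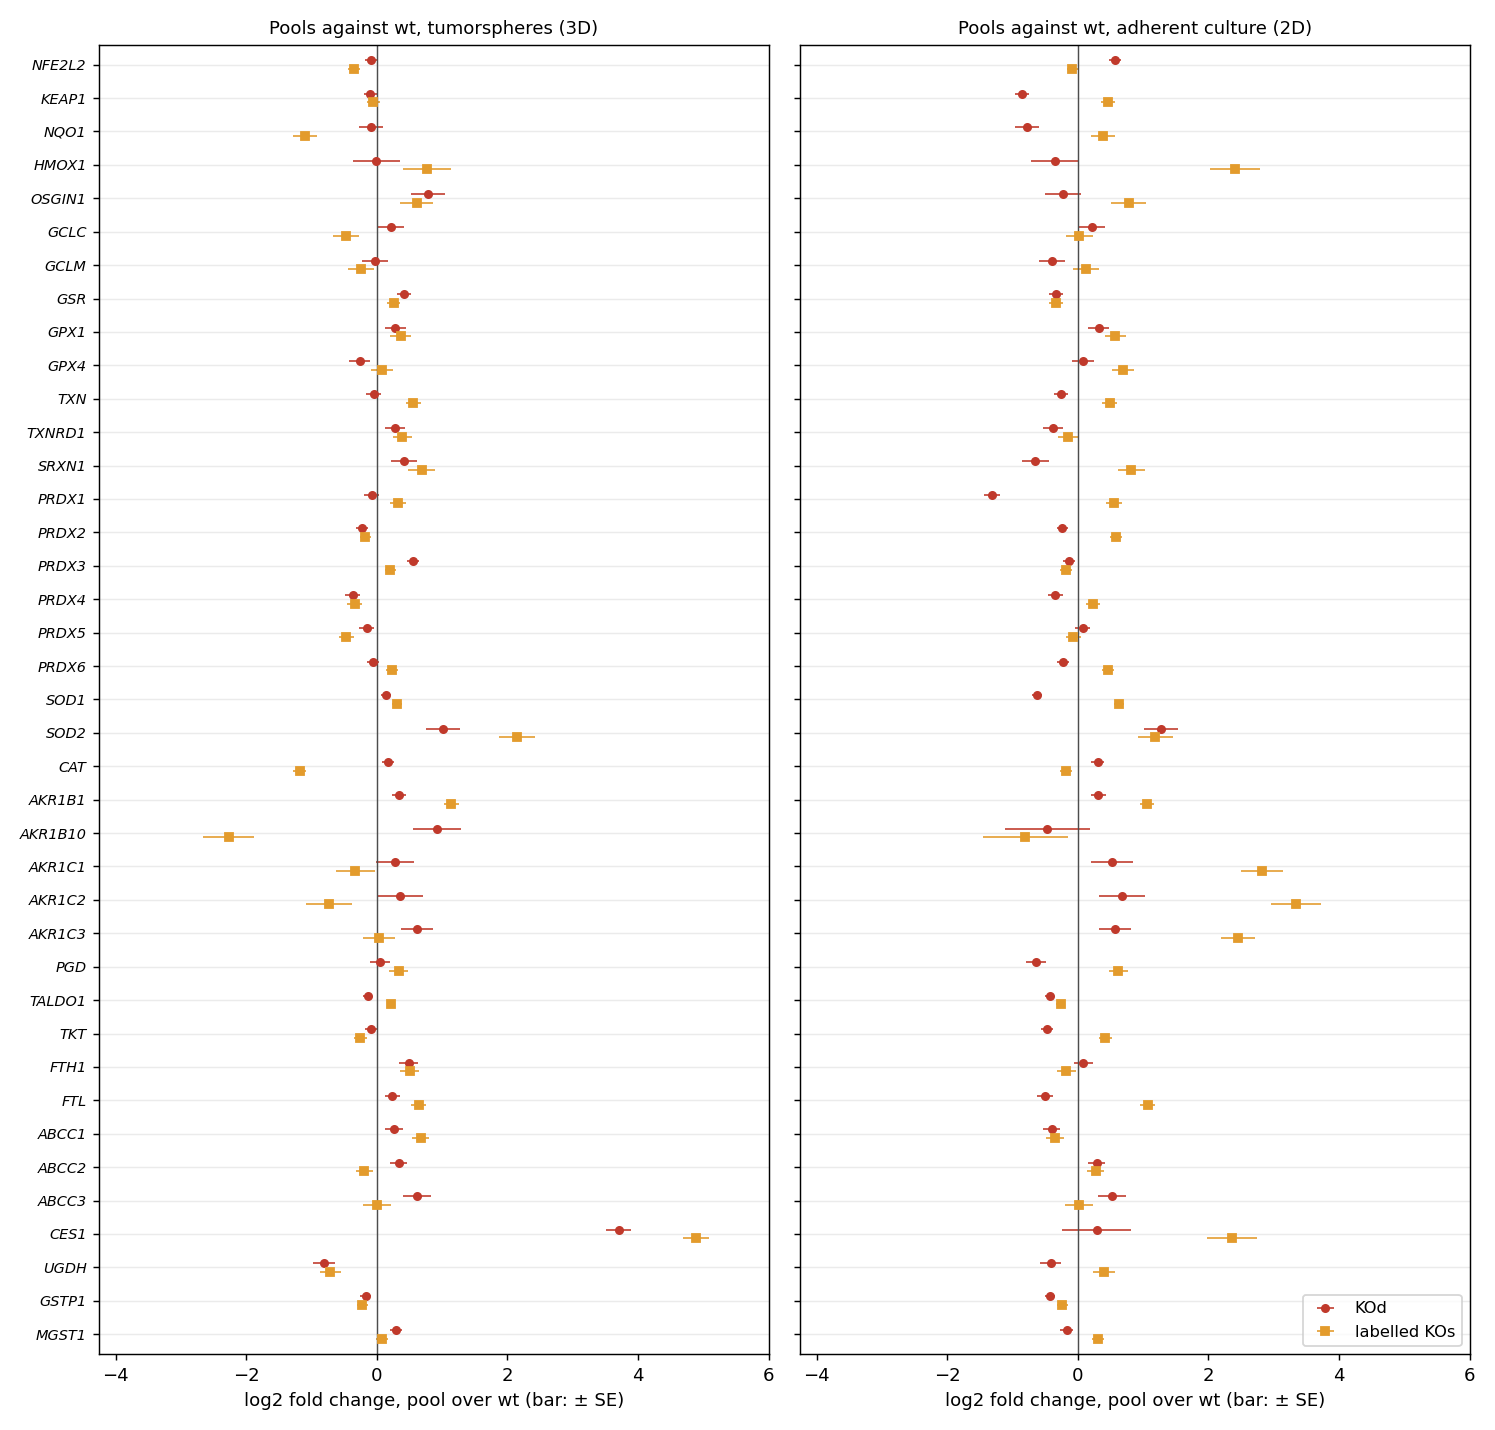
Log2 fold change of each pool over wt in tumorspheres (left) and adherent cells (right) for 39 members, with bars for ± SE of the model. CES1 stands at 3.70 in KOd and 4.89 in labelled KOs tumorspheres, and in adherent cells AKR1C1, AKR1C2 and AKR1C3 of labelled KOs lie between 2.45 and 3.34.

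The pools were also set against each other directly. In 2D 2 members were higher and 25 lower in KOd than in labelled KOs (background 28.8% and 30.7%, 59.6% in all, 58.2% without overlap), and 5 and 22 under library-total scaling, with a median of -0.61 over members and -0.03 over all genes. The 2 that were higher were NFE2L2 (0.65 ± 0.09, adjusted p = 6.01e-06) and CAT (0.48 ± 0.10, adjusted p = 0.000354). HMOX1 (-2.76 ± 0.39, adjusted p = 9.07e-06; -1.92 without library C of labelled KOs), AKR1C2 (-2.67 ± 0.37), AKR1C1 (-2.30 ± 0.32), CES1 (-2.08 ± 0.36), AKR1C3 (-1.88 ± 0.25), PRDX1 (-1.87 ± 0.12), FTL (-1.57 ± 0.12), SRXN1 (-1.47 ± 0.21), KEAP1 (-1.31 ± 0.11), SOD1 (-1.26 ± 0.08), PGD (-1.26 ± 0.15), NQO1 (-1.15 ± 0.18) and OSGIN1 (-1.0 ± 0.27) were lower by the most. In tumorspheres 10 were higher and 9 lower (background 23.9% and 23.3%, 47.2% in all, 66.5% without overlap), close to the background, and 15 and 14 with the compared groups alone. There AKR1B10 (3.19 ± 0.40, adjusted p = 5.39e-06), CAT (1.35 ± 0.10, adjusted p = 8.86e-09) and NQO1 (1.01 ± 0.18, adjusted p = 0.000221) were higher in KOd, and CES1 (-1.19 ± 0.17, adjusted p = 1.59e-05) and SOD2 (-1.14 ± 0.26, adjusted p = 0.00178) lower. AKR1C2 was higher as well (1.09 ± 0.35, adjusted p = 0.017), but not past the threshold without library B of KOd (0.0505) or library C of labelled KOs (0.0515). NFE2L2 (0.26 ± 0.09, adjusted p = 0.0204) was lost without library C of KOd (0.11) or B or C of labelled KOs, and HMOX1 (-0.77 ± 0.37, adjusted p = 0.0932) and KEAP1 (-0.05 ± 0.10, adjusted p = 0.739) did not pass.

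Some members were also higher in attached wt cells in tumorsphere medium. Against wt 2D cells 12 rose and 2 fell (background 15.6% and 16.4%, 32.0% in all, 66.3% without overlap), and 19 rose and 6 fell without the 3 libraries that stood apart, 19 rose and 5 fell with the compared groups alone. The median was 0.18 over members and 0.00 over all genes. SOD2 was at 3249.9 and 3965 CPM in tumorsphere medium against 276, 278 and 251 in wt 2D cells (3.75 ± 0.30, adjusted p = 9.2e-08), the highest group mean of SOD2 in the study. CES1 was at 2.5 and 3.81 CPM against 0.293, 0.224 and 0.157 in wt 2D cells (3.78 ± 0.36, adjusted p = 6.21e-07) and HMOX1 at 663 and 792 CPM against 179, 175 and 177 (2.04 ± 0.41, adjusted p = 0.000952). The pseudogene row CES1P2 held 839 to 882 counts in the medium group and 253 to 314 in wt 2D cells. How reads were split between it and CES1 was not tested. AKR1C1 was at 40.4 and 44.0 CPM against 13.0, 12.6 and 7.89 in wt 2D cells (1.91 ± 0.35, adjusted p = 0.000404). AKR1C2 (1.45 ± 0.39, adjusted p = 0.00859; 0.0524 without library B of the medium group), AKR1C3 (1.02 ± 0.27), FTH1 (1.09 ± 0.16), GCLM (0.60), TKT (0.58), PRDX6 (0.49), MGST1 (0.42) and AKR1B1 (0.36) rose too. TXNRD1 (-0.97 ± 0.18) and CAT (-0.82 ± 0.11) fell. NQO1 was at 315 and 328 CPM in the medium and did not pass (-0.28 ± 0.20, adjusted p = 0.332), nor did NFE2L2 (0.12 ± 0.10, adjusted p = 0.376), KEAP1 (0.04 ± 0.12, adjusted p = 0.833), GCLC (-0.05) or AKR1B10 (-1.39).

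Against the medium group, wt tumorspheres had 20 members higher and 9 lower (background 32.8% and 30.0%, 62.8% in all, 75.8% without overlap), with a median of 0.33 over members and 0.05 over all genes. NQO1 was at 1984, 2051 and 1156 CPM in tumorspheres against 315 and 328 in the medium group (2.43 ± 0.22, adjusted p = 6.48e-08), and AKR1B10 at 30.5, 32.1 and 8.12 against 0.404 and 0.118 CPM (6.46 ± 0.68, adjusted p = 3.33e-07). CAT was at 231, 236 and 237 CPM against 38.0 and 37.9 in the medium group (2.63 ± 0.12, adjusted p = 1.37e-11), and GCLC rose by 1.31 ± 0.24. AKR1C1 (2.62 ± 0.37), AKR1C2 (2.60 ± 0.43), AKR1C3 (2.51 ± 0.30), ABCC2 (1.70 ± 0.15), OSGIN1 (1.26 ± 0.31), UGDH (0.93), ABCC3 (0.91), PGD (0.54), TKT (0.46), FTL (0.46), TXNRD1 (0.44), PRDX5 (0.33), GSTM3 and GPX2 (both from counts near 0) and CES1 (0.89) were higher in tumorspheres as well. For CES1 the libraries held 148 to 210 counts in tumorspheres and 68 to 97 in the medium group. Its pseudogene row CES1P2 went the other way, with 74 to 97 counts in tumorspheres and 839 to 882 in the medium group. How reads were split between these rows was not tested. NFE2L2 rose (0.47 ± 0.10, adjusted p = 0.000586) and KEAP1 did not pass (0.06 ± 0.12, adjusted p = 0.675). SOD2 was at 586, 613 and 965 CPM in tumorspheres against 3249.9 and 3965 in the medium group and fell (-2.32 ± 0.29, adjusted p = 2.39e-06). HMOX1 overlapped between these groups (-0.11 ± 0.41, adjusted p = 0.832), as did FTH1 (-0.18). GSTP1 (-0.67), MGST1 (-0.59), PRDX6 (-0.57), PRDX3 (-0.48), SOD1 (-0.47), TXN (-0.46), GPX1 (-0.43) and PRDX2 (-0.29) were lower. In wt cells, then, HMOX1 and FTH1 rose over 2D cells both in attached cells in the medium and in tumorspheres, and these groups overlapped. SOD2 in the medium group exceeded the tumorspheres, and NQO1, AKR1B10 and GCLC did not pass in the medium while CAT fell. Both comparisons use the same medium libraries.

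**Figure D5:**
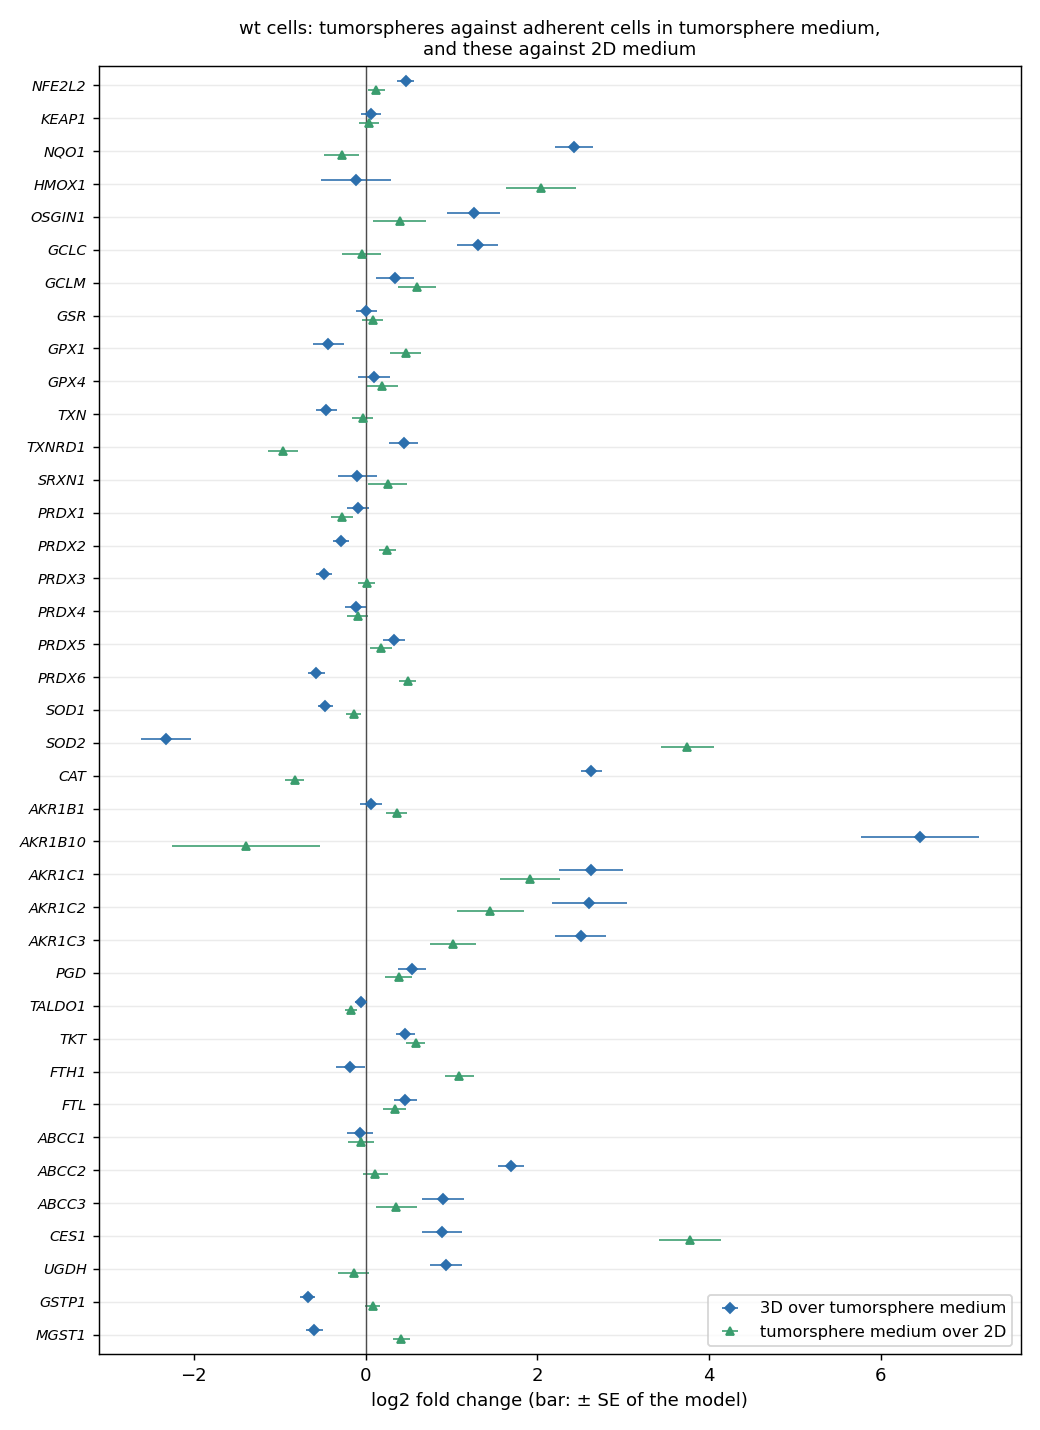
Log2 fold change in wt cells of tumorspheres over adherent cells in tumorsphere medium (diamonds) and of adherent cells in that medium over wt 2D cells (triangles) for 39 members, with bars for ± SE of the model. NQO1 is at 2.43 for tumorspheres over medium and -0.28 for medium over 2D, while SOD2 is at -2.32 and 3.75.

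Other genes of the pathway were counted in further lists. In tumorspheres against 2D cells, 35.2% of all genes rose and 31.2% fell in KOd, 32.9% and 32.1% in labelled KOs, and 33.3% and 30.4% in wt. Of 27 tested NRF2 targets that are not members, 19 rose and 1 fell in tumorspheres of KOd, 18 and 3 in labelled KOs, and 19 and 2 in wt. CYP4F11, a fatty acid hydroxylase, rose by 5.07 ± 0.33, 2.73 ± 0.27 and 3.41 ± 0.29 in KOd, labelled KOs and wt, and the aldehyde dehydrogenase ALDH3A1 by 6.81 ± 0.63, 2.22 ± 0.64 and 7.48 ± 0.80. ALDH3A1 averaged 83.4, 2.55 and 23.2 CPM in these tumorspheres against 0.738, 0.510 and 0.125 CPM in their 2D cells. The wt 2D mean is close to a floor of 3 counts per library (0.113 CPM), so the size of that rise is uncertain. UGT1A6, a glucuronosyltransferase, was at a mean of 23.1 CPM in wt tumorspheres against 0 in wt 2D cells, at least 204-fold higher against a floor of 3 counts per library. The rows of 8 other UGT1A genes, which share exons with it, held 95.1% to 113% as many counts, so the value belongs to the UGT1A locus. The cystine transporter gene SLC7A11 rose in labelled KOs (1.61 ± 0.24) and wt (2.44 ± 0.25) tumorspheres and did not pass in KOd (0.24 ± 0.23, adjusted p = 0.376), where its 2D level was above that of wt 2D cells (2.15 ± 0.24). In wt tumorspheres against the medium group it rose by 3.06 ± 0.30. In KOd against wt in 2D, SESN2 (4.01 ± 0.28) and TXNIP (2.32 ± 0.43) rose by more than SLC7A11. SESN2 fell in tumorspheres of KOd (-1.72 ± 0.25) and rose in those of labelled KOs (0.69 ± 0.26) and wt (1.79 ± 0.27). In 2D, 7 of the 27 rose and 5 fell in KOd against wt (22.1% and 22.5% of all genes) and 13 rose and 2 fell in labelled KOs (27.7% and 25.5%), and 4 were higher and 16 lower in KOd than in labelled KOs (28.8% and 30.7%). In tumorspheres 7 rose and 1 fell in KOd against wt (16.5% and 17.5%) and 10 rose and 5 fell in labelled KOs (27.8% and 28.5%). In the medium 4 rose and 2 fell against wt 2D cells (15.6% and 16.4%).

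Partners and degradation factors of NRF2 (12 tested) showed no common direction in tumorspheres, with 4 up and 4 down in KOd, 5 and 2 in labelled KOs and 2 and 5 in wt. MAFG, a small MAF partner, rose by 0.87, 1.05 and 0.94 in KOd, labelled KOs and wt, and SQSTM1, the autophagy adaptor p62 that binds KEAP1, by 1.53 ± 0.12, 1.77 ± 0.12 and 0.85 ± 0.12. SQSTM1 also rose in tumorsphere medium (1.38 ± 0.13) and in both pools against wt in tumorspheres (1.12 ± 0.12 in KOd and 1.86 ± 0.12 in labelled KOs). BACH1, which represses HMOX1 and other targets, fell in the medium (-1.34 ± 0.16) and in labelled KOs against wt in 2D (-0.73 ± 0.13), and rose in KOd against wt in 2D (0.46 ± 0.13). It fell in labelled KOs against wt in tumorspheres (-0.86 ± 0.13), where KOd did not pass (-0.17 ± 0.13). In tumorspheres against 2D cells BACH1 fell in KOd with overlap (-0.40 ± 0.13). It did not pass there in labelled KOs (0.10 ± 0.13) or wt (0.23 ± 0.13). CUL3, the scaffold of the KEAP1 ligase, and its partner RBX1 fell in KOd against wt in 2D (-0.70 ± 0.09 and -0.80 ± 0.10). Of 13 tested further thioredoxin, dismutase and methionine sulfoxide reductase genes, 2 rose and 6 fell in KOd tumorspheres, 1 and 8 in labelled KOs and 1 and 8 in wt. SOD3, the extracellular dismutase, rose by 7.11 ± 0.67, 2.62 ± 0.46 and 4.70 ± 0.69 in the same order, and MSRB3 fell in all 3 (-2.05 ± 0.13, -1.80 ± 0.13 and -1.71 ± 0.13). SOD3 averaged 30.8, 33.2 and 6.63 CPM in these tumorspheres against 0.219, 5.35 and 0.252 CPM in their 2D cells. The sizes for KOd and wt thus start from counts near 0 and are uncertain.

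Among 23 tested further glutathione genes, 10 rose and 9 fell in KOd tumorspheres, 6 and 9 in labelled KOs and 9 and 8 in wt, near the shares of all genes given for these comparisons. CHAC1, which degrades glutathione and is induced by the amino acid stress factor ATF4, was at 55.5, 65.6 and 60.8 CPM in KOd 2D cells against 2.05, 2.42 and 2.71 in wt 2D cells (4.66 ± 0.29, adjusted p = 1.67e-09). Of the same list 15 rose and 3 fell in labelled KOs against wt in 2D (27.7% and 25.5% of all genes), with GGT1 at 1.74 ± 0.43 and GSTM1 at 1.57 ± 0.16. CHAC1 rose there too (1.64 ± 0.28), to a mean of 7.44 CPM against 2.39 CPM in wt 2D cells. Among 12 tested genes of iron handling, 8 rose and 2 fell in KOd tumorspheres, 3 and 6 in labelled KOs and 5 and 4 in wt. CYBRD1, a ferric reductase, rose by 2.07 ± 0.25, 0.72 ± 0.24 and 1.76 ± 0.25 in KOd, labelled KOs and wt. In 2D, 7 of the 12 fell and 2 rose in KOd against wt (22.5% and 22.1% of all genes), with STEAP3 at -1.04 ± 0.15 and HMOX2, the constitutive haem oxygenase, at -1.0 ± 0.13. Of 20 tested selenoprotein genes, 4 of them members, 6 rose and 2 fell in KOd tumorspheres, 2 and 6 in labelled KOs and 6 and 6 in wt, and SELENOP, a secreted carrier of selenium, rose by 1.91 ± 0.62, 1.44 ± 0.62 and 2.71 ± 0.65.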

How the data were processed

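Messenger RNA of 20 libraries was sequenced from stranded libraries and aligned with STAR to hg38, per the labels and the submitters' processing notes. The authors deposited 1 table of raw counts for 27864 genes by Entrez ID, with a gene length; the counting tool, its strand setting and the annotation are not given in the sources used here, so overlapping and antisense genes may share reads. Gene symbols were matched for 27740 IDs from RefSeq (GRCh38.p14). Libraries were grouped by their labels, which do not say that replicates are separate cultures, so p-values measure only the spread between these libraries, which may be technical.

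Counts were tested with edgeR 4.0.16 in R 4.3.3 (filterByExpr, TMM, quasi-likelihood fit of 7 groups over all 20 libraries, 13 residual degrees of freedom). Of the genes, 16323 passed the filter, and p-values were adjusted by Benjamini-Hochberg over these, with a threshold of 0.05. The SE is the log2 fold change over the square root of F. CPM per kilobase divides by the deposited length. The edgeR fit was tested on simulated data for wt 3D against wt 2D only. Alternatives were DESeq2 1.42.0, limma-voom (limma 3.58.1), DESeq2 size factors, library totals, no filter and a stricter one (1 CPM in 3 libraries), no ribosomal RNA genes, the compared groups alone, a threshold of 0.01, a replicate block and leaving out libraries. Tables and figures were made with Python 3.11.15, pandas 2.3.3, numpy 2.4.6 and matplotlib 3.10.9.

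Replicate letters are shared between groups. The deviations of same-letter libraries from their group means correlated above 0.1 in every pair for KOd with wt in 2D (0.26, 0.21 and 0.18) and in 3D (0.35, 0.38 and 0.45), a hint from the data and not from the labels, so blocked counts are printed beside those results.

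The members and lists were chosen with earlier results of these data known. Per-library values and full statistics were given for NFE2L2, KEAP1, NQO1, HMOX1 and members that passed with a log2 change of 1 or more in size, largest first and up to 10 in each direction; some other members were added for their role. Of each further list up to 3 genes in each direction were named among those that passed with the largest change and a mean log2 CPM of at least 2; UGT1A6 was added after its values were seen.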

Additional observations from a re-analysis of the deposited data

Results flagged for a closer look

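The change between tumorspheres and adherent cells differed from that of wt by more than 1 on the log2 scale, with an interaction contrast of edgeR past the threshold, for 3 members in KOd and 9 in labelled KOs of 41 tested, and for 11.0% and 16.6% of all genes. Each value is the change in the pool minus that in wt.

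In KOd the difference was 3.41 ± 0.62 for CES1, 1.23 ± 0.17 for PRDX1 and 1.06 ± 0.29 for SRXN1. PRDX1 rose in KOd tumorspheres (0.87) and fell in wt tumorspheres (-0.36). SRXN1 rose in KOd (1.22) and did not pass in wt (0.16), and CES1 rose by 8.08 in KOd and 4.67 in wt. The pseudogene row CES1P2 held more counts in tumorspheres than in 2D cells of KOd (1906 against 466) and fewer in wt (250 against 842).

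In labelled KOs the difference was -4.07 ± 0.51 for AKR1C2, -3.15 ± 0.44 for AKR1C1 and -2.42 ± 0.35 for AKR1C3, whose 2D levels were above wt. It was -1.64 ± 0.52 for HMOX1, which rested on library C of labelled KOs 2D, -1.48 ± 0.26 for NQO1, -1.11 ± 0.23 for UGDH and -1.0 ± 0.14 for CAT. It was 1.02 ± 0.19 for ABCC1 and 2.52 ± 0.55 for CES1. The libraries labelled KOs were deeper and held less ribosomal RNA than the others, and the part of this in the differences was not tested.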

How the results depend on the processing

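Of the alternatives run, none reversed a member past the test among those chosen by the naming rule: 2317 of their values kept direction and side of the threshold, 43 lost the call and 18 gained one. Members past the test in KOd against wt in 2D numbered 21 as reported, 32 with a replicate block in these groups alone (28 in these groups without the block), 11 at a threshold of 0.01, and 32 without the 3 libraries that stood apart. In 3D they numbered 11 as reported, 20 with library totals, 18 with the replicate block in these groups alone, 5 at 0.01 and 20 without the 3 libraries, and 7 to 13 without 1 replicate (7 without library A of KOd). The replicate block over all groups gave 21 and 15, and moved no count by over 1.5 times. Tumorsphere medium against wt 2D gave 14 as reported, 24 with the compared groups alone and 25 without the 3 libraries. KOd against labelled KOs in 3D gave 19 as reported and 29 with the compared groups alone. At 0.01 the differences in the culture change gave 9 in KOd (15 as reported) and 13 in labelled KOs (21 as reported). The block with the compared groups alone was added after seeing the data. For these shifts the cause was not tested, other than that a lower threshold calls fewer by construction.

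Over all genes, medium against wt 2D called 5224 as reported, 3224 at 0.01, 7968 without the 3 libraries, and 3192 and 2752 without library A and B of the medium group. Differences in the culture change called 2822 (4751 as reported) in KOd and 3798 (6012 as reported) in labelled KOs at 0.01. Without library C of labelled KOs 2D, HMOX1 lost its difference in culture change (-0.80, adjusted p by edgeR 0.0726). Changes that had not passed turned sign and passed for ABCC3 in labelled KOs without library A of their 2D group (-0.46 against 0.02 as reported for 2D against wt, and 0.46 against -0.02 for the difference in culture change), and without the 3 libraries also for SRXN1 in labelled KOs tumorspheres (-0.24 against 0.03) and GPX4 in wt tumorspheres against medium (-0.24 against 0.10). GPX2 and GSTM3 rest on few counts, and their calls changed under several alternatives. Depth limits GPX2, GPX3 and GSTM3 most.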
